A study of Mus musculus with 8 samples.

Results

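The cardiac progenitor transcription factors examined here were *Isl1*, *Nkx2-5*, *Mef2a*, *Mef2c*, *Mef2d*, *Hand1*, *Hand2*, *Srf* and *Myocd*, together with *Smarcd3*, a subunit of the BAF chromatin remodelling complex that works with them in the heart. All probes other than controls that the array files name for 1 of these 10 genes were taken, which gave 17 of the 41174 probes on the array. This rule used no measured value. To be tested, a probe had to stand well above its local background on the 4 arrays of one genotype or the other. This held for 14 of the 17 probes, with every gene represented, and for 20031 probes of the whole array.

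The tissue was the posterior second heart field (pSHF), the mesoderm behind the heart that supplies cells to the inflow tract and the atrial septum. It was dissected from mouse embryos at E9.5, and RNA pools from 4 Tbx5-/+ and 4 wild-type preparations were each hybridised in 1 colour (Cy3) to an Agilent whole-genome array. Tbx5-/+ embryos carried 1 mutant allele of *Tbx5*, a T-box factor gene, and came from mice on a mixed background, and mothers of embryos were given gonadotropins before mating. Numbers of embryos in a pool are not given in the sources used here. The samples are labelled with the embryo numbers 1, 5, 6 and 7 in both groups and with array label 1 (numbers 1 and 5) or 2 (numbers 6 and 7). According to the methods the attached foregut was kept with the mesoderm, and the neural tube and the heart were cut away. Since the samples were pieces of tissue, fewer cells of a type and less RNA per cell cannot be told apart.

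As background, these factors act in a shared network. ISL1 marks second heart field progenitors before they differentiate, whereas NKX2-5 acts in both progenitors and cardiomyocytes. MEF2 proteins and SRF are MADS-box factors. SRF binds the CArG box in muscle and growth-response genes, and myocardin, encoded by *Myocd*, is its muscle-specific coactivator. HAND1 and HAND2 are basic helix-loop-helix factors of the ventricles, the outflow tract and the lateral mesoderm. TBX5 recruits GATA4, NKX2-5 and the BAF complex, in which the product of *Smarcd3* (BAF60C) links the complex to these factors.

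Mutant tissue had less *Mef2c* and *Myocd* signal in all 4 comparisons made within an embryo number, with average log2 differences of -1.25 and -1.55. By their brightest probes *Hand2* and *Mef2a* were also lower in all 4. The median of all probes tested was below 0 in each number as well, from -0.29 to -0.03. For *Hand2* and *Smarcd3* the differences were -0.49 and -0.72, and for *Isl1* 0.35. None of these differences passed an adjusted p of 0.05 when the 8 arrays were compared with equal weight and without pairing, and *Mef2c* and *Myocd* passed it when the embryo number was used as a block. The block called 8.52% of all probes lower and 0.310% higher. *Mef2d*, the MEF2 gene with a difference nearest to 0, and *Srf*, the partner of myocardin, had differences of -0.05 and -0.11.

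Sequences are shown for the members on which these results turn. The promoter of *Mef2c* was the only one of 10 promoters found for 8 of the genes (none for *Hand1* or *Myocd*) that held the T-box core AGGTGT on either strand. These windows run from 250 bases before to 50 after a RefSeq transcript start (GRCm38.p6). The core was present in 13.7% of 32851 such promoters, and its extension AGGTGTG, which contains the core, in 5.84%. In the *Mef2c* window at chr13:83523406-83523705 (plus strand) the capitals mark AGGTGTG, which begins at base -216 from the start. *Mef2c* has 3 promoters in the table, and only this one held the motif. The promoter of *Srf* at chr17:46556113-46556412 (minus strand) was the only one of the 10 with a CArG box, which SRF itself binds. Its 2 CArG boxes are in capitals, and 1.63% of all promoters held at least 1.
Mef2c promoter: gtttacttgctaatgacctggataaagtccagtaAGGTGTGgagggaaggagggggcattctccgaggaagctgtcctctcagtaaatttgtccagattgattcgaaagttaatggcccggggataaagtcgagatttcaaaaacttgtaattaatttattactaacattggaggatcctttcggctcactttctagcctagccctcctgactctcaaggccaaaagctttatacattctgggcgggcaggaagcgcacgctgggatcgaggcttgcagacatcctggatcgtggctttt
Srf promoter: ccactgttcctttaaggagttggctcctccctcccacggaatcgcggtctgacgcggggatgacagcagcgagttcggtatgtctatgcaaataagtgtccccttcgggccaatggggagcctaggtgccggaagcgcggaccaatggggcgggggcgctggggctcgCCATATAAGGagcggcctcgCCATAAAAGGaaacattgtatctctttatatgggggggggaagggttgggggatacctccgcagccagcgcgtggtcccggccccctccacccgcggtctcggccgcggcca

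Of other motifs searched, AGATAA, which GATA4 and its relatives bind, was found in the promoters of *Hand2* and *Isl1* (11.2% of all promoters), the MEF2 site in that of *Mef2a* (3.19% of all promoters) and TNAAGTG, an NKX2-5 site, in none of the 10 (11.5% of all promoters). Such matches describe letters in a window, and binding was not measured. The array was read by 60-base probes. For 4 of the 17 the file's coordinates (mm9) span a longer stretch of the genome, as those of a probe across a splice junction do, and the 3 printed here read genes with a larger difference. Both *Hand2* probes cross a gap of 1300 bases and share 23 bases, in capitals below, so they are not independent readings of the gene. They lie at chr8:59801251-59802610 (A_51_P147850) and chr8:59801214-59802573 (A_52_P420479). The *Smarcd3* probe, at chr5:24098592-24098863, crosses a gap of 212 bases. Exon or UTR positions of the other probes were not assigned, because no annotation of mm9 was used here.
Hand2 probe A_51_P147850: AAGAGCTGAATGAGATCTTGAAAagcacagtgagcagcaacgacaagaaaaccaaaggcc
Hand2 probe A_52_P420479: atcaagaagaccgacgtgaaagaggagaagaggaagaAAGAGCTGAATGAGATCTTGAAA
Smarcd3 probe A_51_P423880: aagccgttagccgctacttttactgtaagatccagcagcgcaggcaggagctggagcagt

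Values are given as variance-stabilised (VSN) signals on the log2 scale, on which a difference of 1 is a doubling, and each gene is described by its brightest tested probe. Differences are Tbx5-/+ minus wild-type. The median difference of all probes tested was -0.19 under this scaling, so part of any negative value is shared by the tested probes as a set. Over the 16761 probes well above background on all 8 arrays the median was -0.14, and over all 41174 probes it was 0.03. Under the other scalings tried the median of the probes tested lay between -0.21 and 0.13. On the 8 arrays 45.0% to 63.6% of spots stood well above background, and the 4 wild-type arrays had 50.9% to 63.6% against 45.0% to 52.8% on the Tbx5-/+ arrays. In limma, 0% of all probes tested had an adjusted p under 0.05. At an unadjusted p under 0.05, 17.3% of all probes were lower and 3.62% higher in Tbx5-/+. The *Tbx5* probe A_52_P523712 read 9.01, 9.76, 9.09 and 8.63 in Tbx5-/+ pools 1, 5, 6 and 7, and 11.47, 11.53, 10.43 and 11.54 in the wild-type pools. Every mutant pool was below every wild-type pool, in the direction of the labels, although the place of the probe relative to the mutated part of the gene was not determined. The difference was -2.12 (SE 0.32, limma adjusted p = 0.0973, or 0.0322 with the embryo number as a block). A second *Tbx5* probe, A_51_P469338, differed by -0.16 (limma adjusted p = 0.779).

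Of the 14 probes tested, 11 were well above background on all 8 arrays, and 10 of these were lower in Tbx5-/+, 8 of them by more than the median of all such probes. The other 3 entered through the wild-type arrays alone, a choice that favours a lower mutant value, and are not counted here. None of the 10 genes passed an adjusted p of 0.05 in limma, and none did by the unpaired t statistic without moderation. At an unadjusted p under 0.05, limma gave 4 genes (*Hand2* by its dimmer probe, *Mef2c*, *Myocd* and *Smarcd3*), all lower, and the unmoderated statistic gave *Mef2a* and *Mef2c*. That set changed with the scaling, to *Mef2c*, lower, and *Isl1*, higher, at the 75th percentile or with centred arrays, and to *Mef2c* and *Smarcd3*, both lower, with normexp and quantile normalisation. Many of the 20031 probes were called at this level too. The main fit called 17.3% lower and 3.62% higher, and the unmoderated statistic 2513 lower and 581 higher. At the 75th percentile 1737 were lower and 3076 higher. With centred arrays these counts were 1347 and 3235, and with normexp and quantile normalisation 1891 and 1928. More genes passed the adjusted threshold in fits that also called much of the array. *Mef2c*, *Myocd* and the dimmer probe of *Hand2* passed, all lower, with the embryo number as a block and both pools of number 1 left out (22.7% of all probes lower and 11% higher), and 5 genes passed with arrays weighted by their spread (33.4% of all probes lower and 18.6% higher). No member probe separated the groups completely, whereas 8.36% of all probes were lower and 0.804% higher in every Tbx5-/+ pool than in any wild-type pool.

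**Figure D1:**
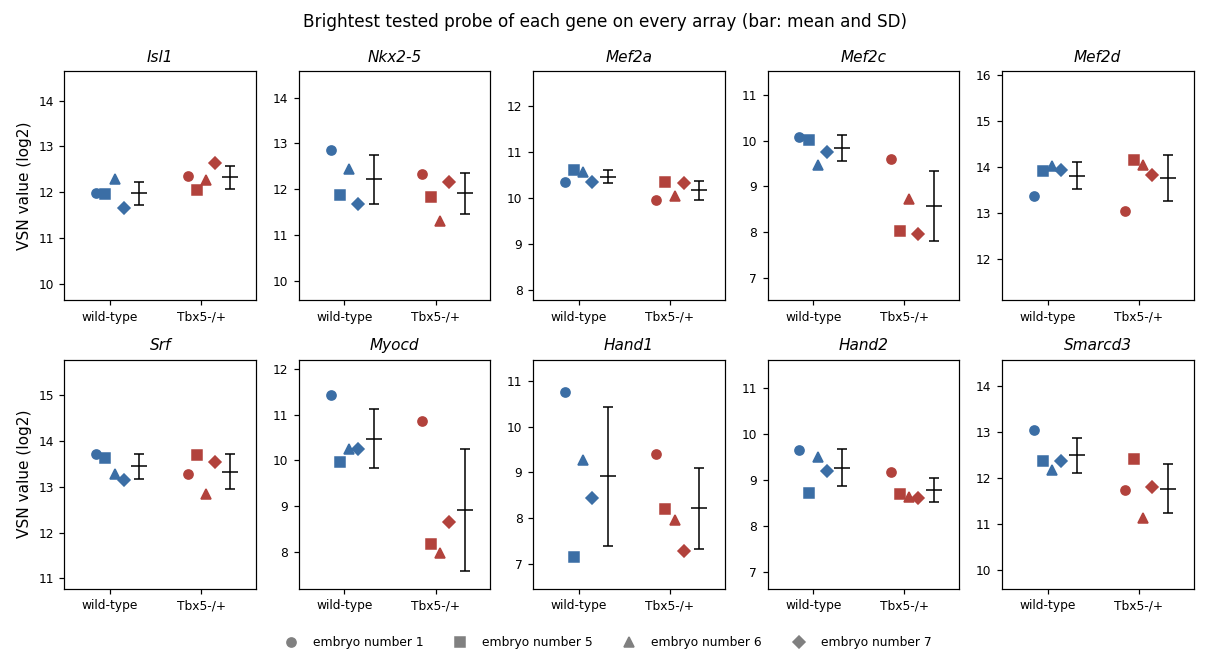
VSN value (log2) of the brightest tested probe of each of the 10 genes on every array, with wild-type in blue, Tbx5-/+ in red and a marker for each embryo number; black bars give the mean and SD of 4 arrays. In the *Mef2c* and *Myocd* panels Tbx5-/+ 1 lies above the other 3 mutant arrays, and every panel spans the same number of log2 units.

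*Mef2c*, the MEF2 gene required for growth of the right ventricle and outflow tract, was read by the probe A_51_P135802 at chr13:83802754-83802813. Its values in Tbx5-/+ pools 1, 5, 6 and 7 were 9.59, 8.03, 8.73 and 7.96. In wild-type pools 1, 5, 6 and 7 they were 10.09, 10.02, 9.47 and 9.75. Mutant pools 5, 6 and 7 lay below all wild-type pools, while Tbx5-/+ 1 was above wild-type 6, so the groups overlapped. The mean was 8.58 ± 0.76 in Tbx5-/+ against 9.83 ± 0.28 in wild-type (SD, n = 4 each), 2.39-fold lower. This difference of -1.25 (SE 0.35, 95% interval -2.04 to -0.46) had an adjusted p of 0.139 in limma.

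Within the embryo numbers 1, 5, 6 and 7, *Mef2c* differed by -0.50, -1.99, -0.73 and -1.79. The average was -1.24 on the arrays of label 1 and -1.26 on those of label 2. With the embryo number as a block, limma's adjusted p for *Mef2c* was 0.0403. Under that block 8.52% of all probes were called lower and 0.310% higher. Leaving out Tbx5-/+ 1, the difference was -1.59 (limma adjusted p = 0.0103), in a fit in which 10.5% of all probes were called lower and 6.97% higher. The other *Mef2c* probe, A_52_P282110 at chr13:83717123-83717182, was not well above background on any array and gave no reading.

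Its close relatives, *Mef2a* and *Mef2d*, encode proteins that bind the same site. *Mef2a* (A_52_P175157, chr7:74376573-74376632) read 9.94, 10.34, 10.04 and 10.31 in Tbx5-/+ and 10.35, 10.60, 10.57 and 10.33 in wild-type, in the order of embryo numbers. The groups met at 10.3, where Tbx5-/+ 5 was above wild-type 7. The difference was -0.30 (SE 0.18, limma adjusted p = 0.334), and all 4 within-number differences were negative, the smallest at -0.02. A dimmer *Mef2a* probe, A_52_P311841, well above background on 1 of 4 mutant and all 4 wild-type arrays, differed by -0.44 (limma adjusted p = 0.433), and A_52_P290579 did not meet the criterion for testing.

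*Mef2d* (A_51_P394676, chr3:87975777-87975836) read 13.05, 14.15, 14.04 and 13.83 in Tbx5-/+ and 13.37, 13.92, 14.03 and 13.94 in wild-type. Pool 1 was the lowest of its group in both genotypes, and the other 6 values fell between 13.83 and 14.15. The difference was -0.05 (95% interval -0.66 to 0.57, limma adjusted p = 0.930). It was positive, by 0.27 and 0.33, with arrays centred on their medians or scaled to the 75th percentile. A dimmer *Mef2d* probe, A_51_P504672, well above background on 2 of 4 mutant arrays, differed by -0.03, and A_52_P334052 was not tested. Set against *Mef2d* on the same array, a contrast picked after the values were seen and given as a description, *Mef2c* had an average difference of -1.21. Within the embryo numbers that contrast was -0.18, -2.23, -0.75 and -1.68, nearest to 0 in number 1.

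*Srf* (A_51_P100289), which encodes the factor that myocardin activates, had values of 13.28, 13.68, 12.83 and 13.53 in Tbx5-/+ and 13.72, 13.62, 13.27 and 13.15 in wild-type. The file places this probe on 8 bases only, at chr17:46683788-46683795, so its position is incomplete. The groups overlapped over most of their range. The difference was -0.11 (95% interval -0.64 to 0.43, limma adjusted p = 0.797), and it was positive, by 0.21 and 0.23, with centred arrays or the 75th percentile.

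*Myocd* itself (A_51_P469942, chr11:64990406-64990465) had the largest difference of the 10 genes. Its values were 10.87, 8.17, 7.98 and 8.66 in Tbx5-/+ pools 1, 5, 6 and 7, and 11.42, 9.97, 10.24 and 10.25 in the wild-type pools. In both genotypes pool 1 was the highest. Tbx5-/+ 1 was above wild-type 5, 6 and 7, whereas the other 3 mutant pools were below all wild-type pools. Means were 8.92 ± 1.33 and 10.47 ± 0.64 (SD, n = 4 each), 2.92-fold lower in Tbx5-/+. The difference of -1.55 (SE 0.60, 95% interval -2.88 to -0.21) had an adjusted p of 0.215 in limma.

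Pool by pool, *Myocd* differed by -0.55, -1.80, -2.26 and -1.59 in numbers 1, 5, 6 and 7, and by -1.18 and -1.92 on average on arrays of label 1 and 2. With the embryo number as a block the adjusted p in limma was 0.0322, and without Tbx5-/+ 1 the difference was -2.20 (limma adjusted p = 0.0110). A dimmer *Myocd* probe, A_52_P557424 at chr11:64992282-64992341, was well above background on 1 of 4 mutant and all 4 wild-type arrays and differed by -0.65 (limma adjusted p = 0.363). It had the same order at the top of each group, with 7.32 in Tbx5-/+ 1 and 7.86 in wild-type 1. Set against *Srf* on the same array, again a contrast picked after the values were seen, *Myocd* had an average difference of -1.44, made of -0.11, -1.86, -1.82 and -1.96 within numbers 1, 5, 6 and 7.

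**Figure D2:**
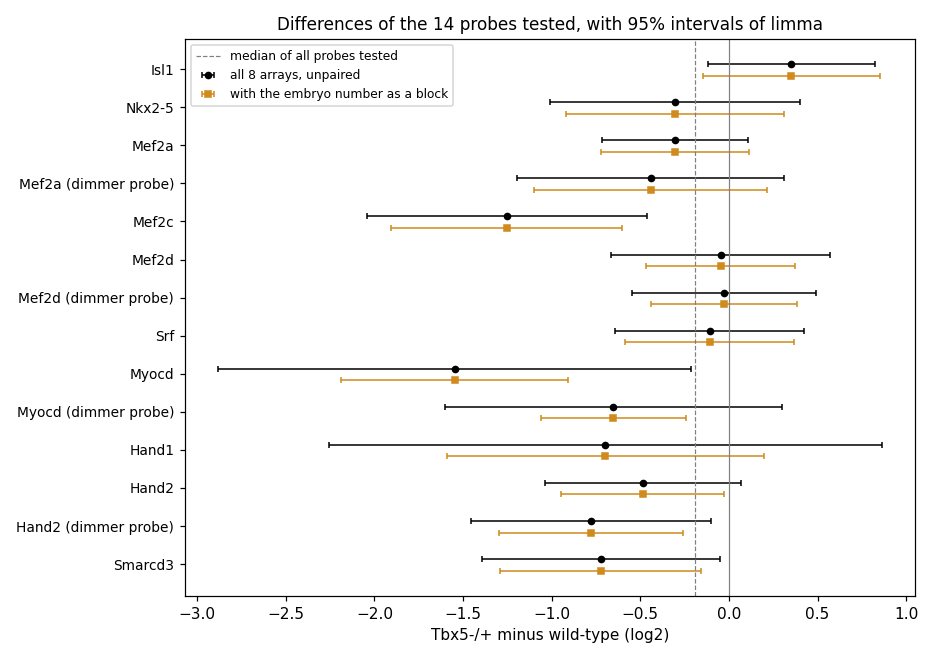
Tbx5-/+ minus wild-type (log2) of the 14 probes tested with 95% intervals of limma, from all 8 arrays without pairing (black) and with the embryo number as a block (orange); the dashed line is the median of all probes tested, at -0.19. *Mef2c* at -1.25 and *Myocd* at -1.55 lie farthest to the left, their intervals are narrower with the block, and *Isl1* at 0.35 is the only point right of 0.

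*Isl1*, the progenitor marker, was spotted 10 times on each array by the probe A_52_P337246 (chr13:117088774-117088833), and these repeats show how far a difference between arrays exceeds spot noise. Its means were 12.36, 12.04, 12.27 and 12.64 in Tbx5-/+ and 11.98, 11.97, 12.29 and 11.66 in wild-type. All mutant pools were above wild-type 1, 5 and 7, Tbx5-/+ 5 only just, while wild-type 6 fell within the mutant range. Repeated spots on 1 array had an SD of 0.03 to 0.07, against 0.25 and 0.26 between arrays of a group. The difference of 0.35 (SE 0.21, 95% interval -0.12 to 0.82, limma adjusted p = 0.329) was the only positive one of the 14 probes, and it ran from 0.25 to 0.72 over the alternatives tried. Within numbers it was 0.38, 0.07, -0.02 and 0.98, so number 7 contributed most.

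Motor neurons also express *Isl1*, and markers of motor neurons and the neural tube were therefore examined. Of 15 such genes on the array 8 were tested, with none at an unadjusted p under 0.05 and a median difference of 0.07. Among those not tested, *Chat* and *Sox1* were not well above background on all arrays of a group, nor were *Lhx3*, *Lhx1*, *Lhx4* and *Olig2*. The mean level of the tested markers ran from 8.25 to 9.14 in Tbx5-/+ and from 7.62 to 9.76 in wild-type. Their part in the *Isl1* difference was not tested.

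*Nkx2-5* (A_51_P173285, chr17:26975621-26975680), the homeobox partner of TBX5, read 12.34, 11.83, 11.30 and 12.16 in Tbx5-/+ and 12.86, 11.88, 12.43 and 11.68 in wild-type. Ranges of the groups overlapped widely. The difference was -0.31 (SE 0.32, 95% interval -1.01 to 0.40, limma adjusted p = 0.565). Within numbers it was -0.52, -0.05, -1.13 and 0.48, and it was 0.01 with centred arrays and 0.07 at the 75th percentile.

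*Hand1* (A_51_P342549, chr11:57642342-57642401) had the least precise difference of the 10 genes. Its values were 9.40, 8.19, 7.96 and 7.29 in Tbx5-/+ and 10.76, 7.17, 9.28 and 8.44 in wild-type. A single pool, wild-type 1, stood highest and another, wild-type 5, lowest of all 8. The difference of -0.70 (SE 0.70, 95% interval -2.26 to 0.86) had an adjusted p of 0.552 in limma. It was -0.08 without wild-type 1, -1.28 without wild-type 5 and -1.09 without Tbx5-/+ 1. Within numbers it was -1.35, 1.03, -1.31 and -1.15.

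*Hand2* was read by the 2 overlapping probes printed above. The brighter, A_51_P147850, gave 9.17, 8.70, 8.63 and 8.61 in Tbx5-/+ and 9.64, 8.72, 9.50 and 9.19 in wild-type, a difference of -0.49 (SE 0.25, limma adjusted p = 0.272). The dimmer, A_52_P420479, gave 8.33, 7.69, 7.26 and 7.28 in Tbx5-/+ and 8.91, 7.87, 8.54 and 8.35 in wild-type, a difference of -0.78 (SE 0.30, limma adjusted p = 0.216). By both probes wild-type 5 was the lowest of its group and Tbx5-/+ 1 the highest of its own, and there the groups overlapped. Without Tbx5-/+ 1 the dimmer probe passed the threshold, at -1.01 (limma adjusted p = 0.0366), and the brighter did not, at -0.62 (limma adjusted p = 0.0887).

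*Smarcd3*, by the probe printed above, had values of 11.74, 12.41, 11.12 and 11.79 in Tbx5-/+ and 13.05, 12.38, 12.16 and 12.37 in wild-type. Only Tbx5-/+ 5 reached the wild-type range. The difference of -0.72 (SE 0.30, 95% interval -1.40 to -0.05) was 1.65-fold and had an adjusted p of 0.227 in limma, or 0.0892 with the block. Within numbers it was -1.31, 0.04, -1.05 and -0.58.

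**Figure D3:**
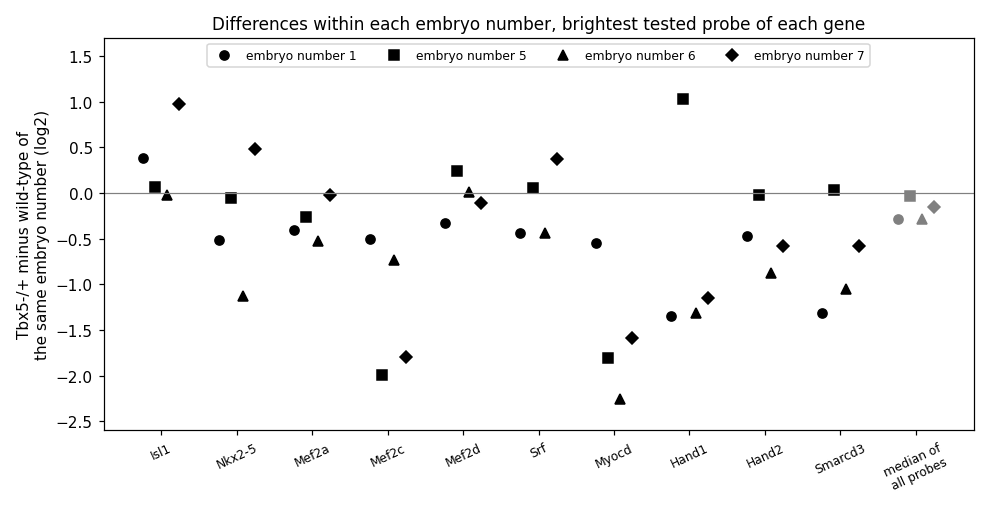
Tbx5-/+ minus wild-type of the same embryo number (log2) for the brightest tested probe of each gene, with a marker for each number, and in grey the median over all probes tested. *Mef2c*, *Myocd*, *Mef2a* and *Hand2* are below 0 in all 4 numbers, whereas *Isl1* is above 0 in 3 and the grey medians run from -0.29 to -0.03.

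How the arrays were scaled moved the values by unequal amounts and turned the sign of those near 0. *Mef2c* ranged from -1.27 to -0.80 and *Myocd* from -1.56 to -1.14 over the 5 scalings, and *Isl1* stayed positive. *Hand2* ranged from -0.50 to -0.11 and *Smarcd3* from -0.75 to -0.36. *Nkx2-5*, *Mef2a*, *Mef2d* and *Srf*, the 4 genes with unpaired differences between -0.31 and -0.05, each turned positive under at least 1 scaling.

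**Figure D4:**
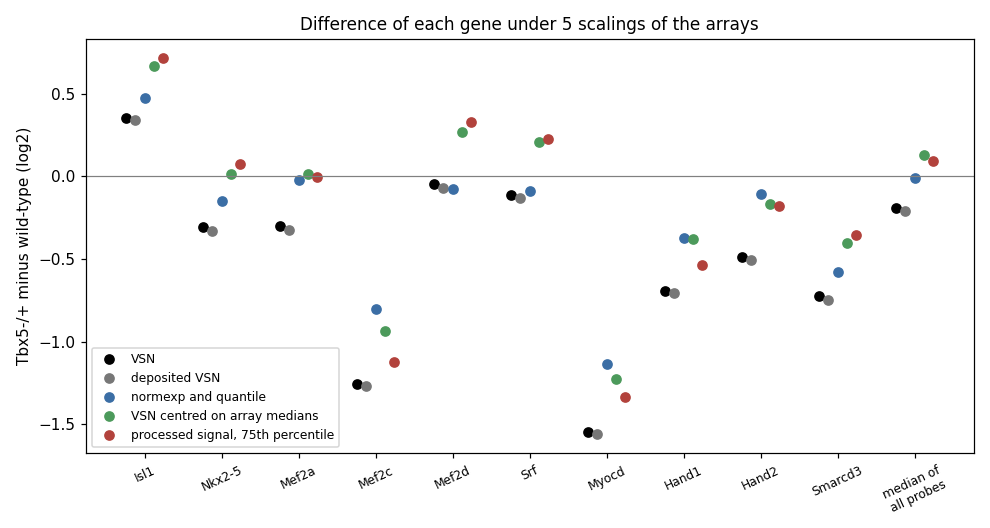
Tbx5-/+ minus wild-type (log2) of each gene under 5 scalings of the arrays, and on the right the median of all probes tested under each. *Mef2c*, *Myocd*, *Hand1*, *Hand2* and *Smarcd3* are below 0 and *Isl1* above 0 under all 5, while *Nkx2-5*, *Mef2a*, *Mef2d* and *Srf* lie on both sides of 0.

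Genes that work with these factors were examined as lists. None of the tested genes of any list passed an adjusted p of 0.05 in limma without the block, and the genes named for each list are those with the smallest p. Of 28 tested partners and regulators of the 10 genes, 25 were well above background on all 8 arrays. Of these 25, 10 were lower and 1 higher at an unadjusted p under 0.05 (17.3% and 3.62% of all probes), and their median difference was -0.60. In a fit of the 16761 probes well above background on all 8 arrays, 2558 were lower and 763 higher at that level. Every Tbx5-/+ pool was below every wild-type pool for 5 of the 25 (8.36% of all probes). The mutated gene itself, *Tbx5*, is counted among the 10 and the 5. *Tbx5* led this list, followed by *Ldb2*, a LIM-domain cofactor of ISL1, at -1.68 (limma adjusted p = 0.105). With the block 7 of the 28 passed, all lower (8.52% of all probes). Besides *Tbx5* and *Ldb2* these were *Gata4*, *Gata5* and *Gata6* at -1.38, -1.09 and -1.16, *Zfpm2* at -1.11 and *Tbx3* at -1.08, named after their values were seen. *Ldb2* and *Gata4* were well above background on 2 of 4 mutant arrays and were tested because of their wild-type arrays. In all lists 14 of the 146 tested genes were tested through the wild-type arrays alone, and for them the filter favours a lower mutant value.

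Targets of SRF and myocardin were divided in direction. Of 14 smooth muscle genes 7 were lower and 7 higher, with a median of -0.06 (-0.20 over the 13 well above background on all 8 arrays). At an unadjusted p under 0.05, 2 of them were lower, as were 17.3% of all probes. *Cald1*, which encodes caldesmon, differed by -1.60 (limma adjusted p = 0.0973, 0.0322 with the block) and *Actg2* by -0.78 (limma adjusted p = 0.206). Of 9 tested immediate early genes of SRF, 1 was lower at that level, with a median of -0.22; *Dusp1* differed by -0.66 and *Ctgf* by 0.38. The 20 cardiomyocyte genes, among them targets of MEF2C, HAND2 and NKX2-5, had a median of 0.03 and none at an unadjusted p under 0.05, led by *Myl7* at 0.61 and *Myh7* at 0.72. Their mean level was 12.63 to 14.16 in Tbx5-/+ and 13.16 to 13.998 in wild-type, so cardiomyocyte transcripts were bright in tissue from which the heart had been cut away. It was lowest in Tbx5-/+ 1, the mutant pool with the highest *Mef2c* and *Myocd*. The part of cardiomyocytes in those values was not tested.

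Of 20 second heart field genes, 16 were well above background on all 8 arrays. Among these 16, 2 were lower and 1 higher at an unadjusted p under 0.05 (17.3% and 3.62% of all probes), with a median of 0.05. *Foxf1a* differed by -1.60 and *Osr1* by -1.35. With the block 5 of the 20 passed lower (8.52% of all probes) and 1 higher (0.310%). Among those 5, *Foxf1a*, *Osr1* and *Gli1* were well above background on 3 of 4 mutant arrays and were tested because of their wild-type arrays. Endothelial cells express *Mef2c*, and of their 12 markers 3 were lower at an unadjusted p under 0.05 (17.3% of all probes). Their median was -0.34, with *Kdr* at -1.11 and *Tie1* at -0.95. In direction, 7 of the 12 were lower and 5 higher, the highest *Robo4* at 0.49. With the block, *Kdr* and *Sox18* passed, both lower (8.52% of all probes). The mean level of these markers was 10.67 to 11.29 in Tbx5-/+ and 11.31 to 11.52 in wild-type, without overlap. Their part in the *Mef2c* difference was not tested. Foregut markers had a median of -0.43 over the 10 genes well above background on all 8 arrays, with 1, *Sox17* at -1.01, lower at that level, and *Foxa3* was not well above background on any Tbx5-/+ array. Neural crest cells express *Hand2*, and 7 of their markers were well above background on all 8 arrays, with a median of -0.29. Among these 7, *Prrx1* at -1.65 and *Twist1* at -0.72 were lower at an unadjusted p under 0.05 (17.3% of all probes). Both passed with the block (8.52% of all probes). The others of the 7 ran from -0.30 for *Ets1* to 0.43 for *Ngfr*, with *Sox10* at -0.06. The mean level of the tested neural crest markers was 9.45 to 10.87 in Tbx5-/+ and 10.33 to 10.79 in wild-type, and their part in the *Hand2* difference was not tested. Somite markers (4 tested, median 0.19, *Tbx6* at 0.40, *Meox2* at -0.46), erythrocyte markers (10 tested, median -0.24, *Tal1* at 0.62, *Klf1* at -0.63) and the neural tube markers above (*Mnx1* at -0.50, well above background on 2 of 4 mutant arrays, *Neurog2* at 0.53) had none at an unadjusted p under 0.05.

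**Figure D5:**
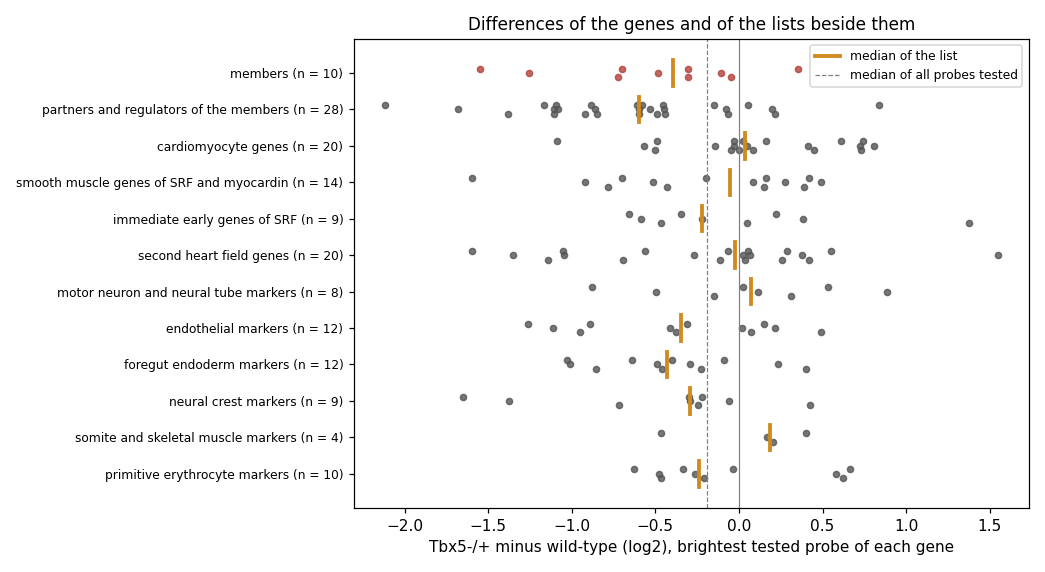
Tbx5-/+ minus wild-type (log2) of the 10 genes (red) and of the tested genes of 11 lists (grey), including those tested through the arrays of 1 group only, 1 point per gene by its brightest tested probe, with the median of each list in orange and that of all probes tested as a dashed line at -0.19. The median of the 10 genes was -0.40 and that of their partners and regulators -0.60, while that of the cardiomyocyte genes was 0.03.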

How the data were processed

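RNA of 8 pSHF pools (4 Tbx5-/+, 4 wild-type) was measured on 1-colour arrays. Per the labels and methods, the authors extracted spot intensities with Agilent Feature Extraction 10.5.1.1, excluded outlier spots, subtracted background, normalised by VSN and took log2 values; the deposited files hold scanner intensities and a table of VSN log2 values. Coordinates are those of the files (mm9).

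VSN was recomputed from the mean signal minus the median local background (90% of probes kept, 7 iterations), without 1115 outlier spots, and correlated with the deposited log2 values at r of at least 0.9999 on every array. No spot was saturated. Repeated spots were averaged. Of 41174 probes, 20031 (48.6%) were well above background on all 4 arrays of a group. They were fitted with limma 3.58.1 (R 4.3.3; lmFit, eBayes, two-sided, Benjamini-Hochberg over all of them, threshold 0.05) in place of the samr test of the methods, which was not run. The number of arrays limits precision. Replicates were pools that the labels call independent; whether litters were shared is not given, and p-values measure the spread between these pools. Alternatives were 3 other scalings, the deposited values, filters, blocks, array weights, an unmoderated t statistic and leaving out each array. Deviations from group means correlated within embryo numbers 1, 5, 6 and 7 at r = 0.439, 0.394, 0.595 and 0.137, so the number was also used as a block; Tbx5-/+ 7 correlated more with wild-type 6 (0.372).

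The members and lists were chosen with earlier results of these data known. Named genes were all members, *Tbx5* and, per list with none past the threshold, the 2 with the smallest p. Some list genes are not reported here by name. Mean levels of lists average VSN values over tested genes. Sequences are from the array files and RefSeq (GRCm38.p6). The fit was checked on simulated data in which 200 of 20021 probes were changed. At an adjusted p under 0.05 limma recovered 0 of the 200 at a log2 change of 1 and 79.5% at 2. Not passing the threshold therefore says little about a difference of 1 or less.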

Additional observations from a re-analysis of the deposited data

Results flagged for a closer look

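In 34 groups of 4 arrays, 1 for each of the 17 probes and each genotype, a single array stood apart by Dixon's test at the 95% level 3 times, where chance flags about 1 group in 20. *Hand2* by A_51_P147850 read 9.17 in Tbx5-/+ 1, with the nearest of the other mutant arrays at 8.70. *Myocd* by A_52_P557424 read 7.32 in the same pool, with the nearest at 5.93. *Mef2d* by A_51_P394676 read 13.37 in wild-type 1, with the nearest at 13.92. All 3 values came from pools of embryo number 1.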

How the results depend on the processing

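The number of the 10 genes past the threshold was 0 with 8 arrays of equal weight and no pairing, and depended on Tbx5-/+ 1 and on the pairing. It was 2 with the replicate block (*Mef2c*, *Myocd*), 3 without Tbx5-/+ 1 and 3 with the block and without number 1, an alternative added after seeing the data (*Mef2c*, *Myocd* and, by its dimmer probe alone, *Hand2* in both). With limma array weights, which gave Tbx5-/+ 1 the lowest weight (0.16), it was 5 (*Hand2*, *Mef2c*, *Myocd* and *Smarcd3* lower, *Isl1* higher), in a fit that called 52.1% of all probes. Leaving out 1 array at a time gave 0 to 3. *Tbx5* passed with the replicate block (-2.12), the weights (-2.55), the block without number 1 (-2.01), and without Tbx5-/+ 1 (-2.08) or wild-type 1 (-2.04), and ranged from -2.39 to -1.95 without 1 array. The replicate block changed no other call of a member. Signs turned as follows. With arrays centred on medians, *Mef2a* was 0.016, *Mef2d* 0.27, *Nkx2-5* 0.014 and *Srf* 0.21. At the 75th percentile, *Mef2d* was 0.33, *Nkx2-5* 0.072 and *Srf* 0.23. With array weights, *Nkx2-5* was 0.19 and *Srf* 0.20. Leaving out arrays, *Mef2d* ranged from -0.19 to 0.19 (0.045 with the block without number 1) and *Srf* from -0.23 to 0.057. The causes were not tested. In the other settings, deposited VSN values, normexp and quantile, both filters, array label and the unmoderated statistic among them, no gene passed. At the 75th percentile 1737 probes were lower and 3076 higher at an unadjusted p under 0.05, against 3457 and 726 by VSN. Signal over background left 3 of 17 probes untested.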
